A study of Mus musculus with 8 samples.

Results

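The genes described here are 10 markers of tendon and cartilage matrix measured in the gastrocnemius, the calf muscle that inserts through the Achilles tendon. They were taken by gene symbol. Each of the 10 had a single probe set with exactly 1 gene symbol, so all 10 were among the 19938 genes tested. RNA came from 30-week-old mice on low-fat chow without further treatment, 4 samples labelled as lacking the histone deacetylase Hdac5 and 4 labelled as wild type littermates, and each sample was hybridised to its own Affymetrix mouse gene array. The submitters asked how HDAC5, a class IIa deacetylase, bears on Il6 and on the genes that IL-6 regulates. The sources used here do not say which part of Hdac5 was removed or whether each sample is a different animal, and a p-value here rests on the spread among samples, part of which may be technical. Values are log2 signals, a change is the knockout mean less the wild type mean, and SE is limma's standard error with moderated variance.

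Tendon is built of parallel collagen fibrils made by rows of fibroblasts called tenocytes. The transcription factors scleraxis (Scx) and mohawk (Mkx) direct tenocyte genes, and tenomodulin (Tnmd) is a membrane glycoprotein of mature tendon cells. Fibromodulin (Fmod), keratocan (Kera) and chondroadherin (Chad) are leucine-rich repeat proteins, of which the first pair bind collagen fibrils and limit their width and the last binds collagen and integrins in cartilage and tendon. Thrombospondin 4 (Thbs4) and cartilage oligomeric matrix protein (Comp) are thrombospondins of 5 subunits that link matrix proteins, and the cartilage intermediate layer proteins Cilp and Cilp2 are secreted glycoproteins. In a piece of whole muscle such transcripts can come from tendon, fascia and the connective tissue between fibres, and their source cells were not identified here. Fewer cells of a type and less RNA per cell cannot be told apart.

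Knockout muscle had the lower mean for 9 of the 10 genes and the higher mean for Cilp, but none passed at a limma adjusted p under 0.05 over all genes. At an unadjusted p under 0.05 in limma, 4 were lower (Chad, Fmod, Thbs4 and Comp) and 1 was higher (Cilp). Among all 19938 genes, 13 passed the adjusted threshold (0.0652%), 0.0251% of all genes as lower and 0.0401% as higher, while 3.18% were lower and 4.72% higher at an unadjusted p under 0.05, and 48.6% had a lower mean in knockout. The median change of the 10 was -0.12, against 0.0030 over all genes. The count of 4 lower genes depended on single samples. Leaving out knockout sample 1, wild type sample 2 or wild type sample 3 brought it to 1, and leaving out knockout sample 3 brought it to 2. The median change was -0.057 without knockout sample 1, -0.211 without knockout sample 3, and -0.178 without knockout sample 4 or without wild type sample 4.

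**Figure D1:**
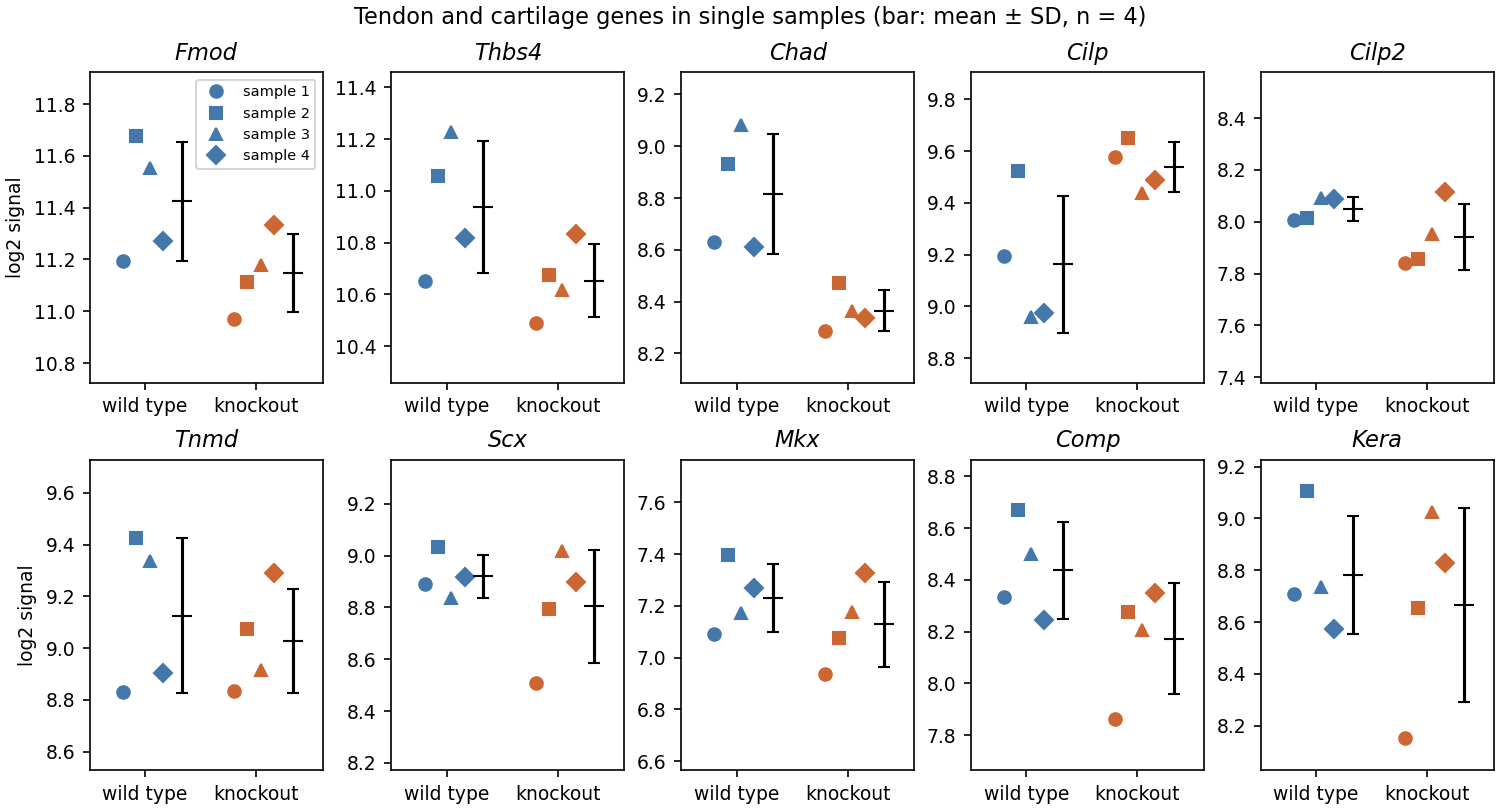
Log2 signal (vertical axis, each panel spanning the same height) of the 10 genes in the 4 wild type samples (blue) and 4 knockout samples (orange), with symbols for the sample number and bars for the mean ± SD (n = 4). The knockout samples of Chad lie at 8.29 to 8.47, below every wild type sample, and in the other 9 genes the genotypes overlap.

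The sequences before the transcription starts of the 3 genes with the lowest changes, Chad, Thbs4 and Fmod, and of Cilp, which differed in the other direction, are shown because scleraxis binds E-boxes, sites of the form CANNTG. Each line holds the 250 bases before the start from RefSeq (GRCm38.p6), read 5′ to 3′ on the strand of the gene, with each CANNTG in capitals.
Fmod (chr1:134037004-134037253, plus strand): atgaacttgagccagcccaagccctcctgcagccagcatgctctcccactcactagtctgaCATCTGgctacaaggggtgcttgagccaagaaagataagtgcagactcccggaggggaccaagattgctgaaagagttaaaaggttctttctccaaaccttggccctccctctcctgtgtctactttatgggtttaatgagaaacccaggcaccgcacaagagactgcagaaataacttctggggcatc
Chad (chr11:94564797-94565046, plus strand): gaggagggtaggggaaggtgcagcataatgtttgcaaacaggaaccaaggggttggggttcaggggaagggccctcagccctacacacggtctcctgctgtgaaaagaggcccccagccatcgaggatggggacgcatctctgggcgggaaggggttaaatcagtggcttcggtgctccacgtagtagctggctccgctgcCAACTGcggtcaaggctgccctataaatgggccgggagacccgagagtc
Thbs4 (chr13:92794819-92795068, minus strand): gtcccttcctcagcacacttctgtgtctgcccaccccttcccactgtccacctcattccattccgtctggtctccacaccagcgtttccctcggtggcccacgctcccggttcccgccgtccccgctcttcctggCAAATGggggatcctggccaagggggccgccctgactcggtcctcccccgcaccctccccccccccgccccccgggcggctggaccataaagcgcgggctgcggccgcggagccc
Cilp (chr9:65264930-65265179, plus strand): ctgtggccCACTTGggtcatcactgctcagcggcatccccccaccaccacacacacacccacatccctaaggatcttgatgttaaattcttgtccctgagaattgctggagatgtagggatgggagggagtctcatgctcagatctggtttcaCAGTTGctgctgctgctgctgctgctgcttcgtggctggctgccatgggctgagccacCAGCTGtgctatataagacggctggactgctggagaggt
Fmod, Chad and Thbs4 each hold 1 CANNTG and Cilp holds 3. Windows were found for 7 of the 10 genes, and 5 of these 7 hold at least 1, while 66.2% of all 32851 windows of that length do. The form CAGATG, read as CATCTG on the other strand, occurs in the Fmod window alone among the 7, and in 14.4% of all windows. CAGATG is contained in CANNTG, so these counts overlap. The letters ACAATG, a core that SOX factors bind, occur in 0 of the 7 windows (10.7% of all), ACAAAG occurs in 2, those of Tnmd and Kera (16.5% of all), and the MEF2 site, the best known target of class IIa deacetylase repression, occurs in 0 (2.92% of all). All motifs were searched on both strands. These matches are descriptions of the letters and not of binding.

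Among the leucine-rich repeat proteins, Chad showed the clearest separation. Its signal was 8.29, 8.47, 8.36 and 8.34 in knockout samples 1 to 4 and 8.63, 8.93, 9.08 and 8.61 in wild type samples 1 to 4. Every knockout sample lay below every wild type sample, which holds for 1.99% of all genes, and wild type samples 2 and 3 were the highest. Knockout muscle averaged 8.36 ± 0.08 (SD, n = 4) and wild type muscle 8.81 ± 0.23 (SD, n = 4). The difference was -0.45 (SE 0.100, limma unadjusted p = 0.000767, adjusted p = 0.180), so that knockout muscle held 0.732 of the wild type level (95% interval 0.629 to 0.852). Chad had an unadjusted p under 0.05 in all 15 alternative settings, with changes of -0.517 to -0.36 and adjusted p-values of 0.0701 to 0.418 in limma.

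Fmod, which controls the growth of collagen fibrils in tendon, had signals of 10.97, 11.11, 11.18 and 11.33 in knockout samples 1 to 4 and of 11.19, 11.68, 11.55 and 11.27 in wild type samples 1 to 4. Knockout samples 1 to 3 lay below all wild type samples, and knockout sample 4 lay between wild type samples. Its change was -0.28 (SE 0.110, limma unadjusted p = 0.0274, adjusted p = 0.542), or 0.826 of the wild type level (95% interval 0.700 to 0.975). Its unadjusted p reached 0.0850 and 0.0571 when knockout sample 1 or 2 was left out, and 0.0926 and 0.0772 when wild type sample 2 or 3 was.

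Kera, best known from the cornea, had signals of 8.15, 8.66, 9.02 and 8.83 in knockout samples 1 to 4 and of 8.71, 9.10, 8.73 and 8.57 in wild type samples 1 to 4. Knockout sample 1 was the lowest of the 8 and the rest of the knockout samples spread across the wild type range. The change was -0.12 (SE 0.164, 95% interval -0.47 to 0.24, limma adjusted p = 0.912), and it turned to 0.0555 without knockout sample 1. Kera had the widest range of the 10 genes over the 8 samples, 0.95 on the log2 scale.

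The thrombospondins Thbs4 and Comp both had lower means in knockout samples. Thbs4, which is enriched where muscle joins tendon, had signals of 10.49, 10.67, 10.62 and 10.83 in knockout samples 1 to 4 and of 10.65, 11.06, 11.23 and 10.82 in wild type samples 1 to 4. Wild type samples 2 and 3 stood above all others, and wild type samples 1 and 4 lay within the knockout range. The change was -0.28 (SE 0.115, limma unadjusted p = 0.0295, adjusted p = 0.552), or 0.821 of the wild type level (95% interval 0.690 to 0.977). Its unadjusted p was 0.0871 and 0.0621 when knockout sample 1 or 3 was left out, and 0.0774 and 0.100 when wild type sample 2 or 3 was.

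Comp had signals of 7.86, 8.27, 8.21 and 8.35 in knockout samples 1 to 4 and of 8.34, 8.67, 8.50 and 8.25 in wild type samples 1 to 4. Knockout sample 1 was far below the rest, while knockout samples 2 and 4 lay within the wild type range. The change was -0.26 (SE 0.113, limma unadjusted p = 0.0379, adjusted p = 0.590), or 0.833 of the wild type level (95% interval 0.702 to 0.988). It was -0.16 without knockout sample 1 (unadjusted p = 0.124) and -0.187 without wild type sample 2 (unadjusted p = 0.122).

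The cartilage intermediate layer proteins had opposite signs. Cilp, which binds the growth factor TGF-beta 1, had signals of 9.58, 9.65, 9.44 and 9.49 in knockout samples 1 to 4 and of 9.20, 9.52, 8.96 and 8.97 in wild type samples 1 to 4. All knockout samples lay above wild type samples 1, 3 and 4, and wild type sample 2 lay among them, so the separation seen above all wild type samples in 2.91% of genes did not hold here. Knockout muscle averaged 9.54 ± 0.10 (SD, n = 4) and wild type muscle 9.16 ± 0.26 (SD, n = 4). The change was 0.38 (SE 0.112, limma unadjusted p = 0.00575, adjusted p = 0.370), or 1.30 times the wild type level (95% interval 1.10 to 1.54). Over the 15 alternative settings it ran from 0.299 to 0.496, with adjusted p-values of 0.0846 to 0.689 in limma and unadjusted p-values under 0.05.

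Cilp2 had signals of 7.84, 7.86, 7.95 and 8.12 in knockout samples 1 to 4 and of 8.01, 8.01, 8.09 and 8.09 in wild type samples 1 to 4. Knockout samples 1 to 3 lay below all wild type samples and knockout sample 4 above them all. The change was -0.11 (SE 0.069, 95% interval -0.26 to 0.04, limma adjusted p = 0.763). The wild type samples were close together, with an SD of 0.05 against 0.13 in knockout. With knockout sample 4 omitted the change was -0.168 (limma unadjusted p = 0.0186).

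**Figure D2:**
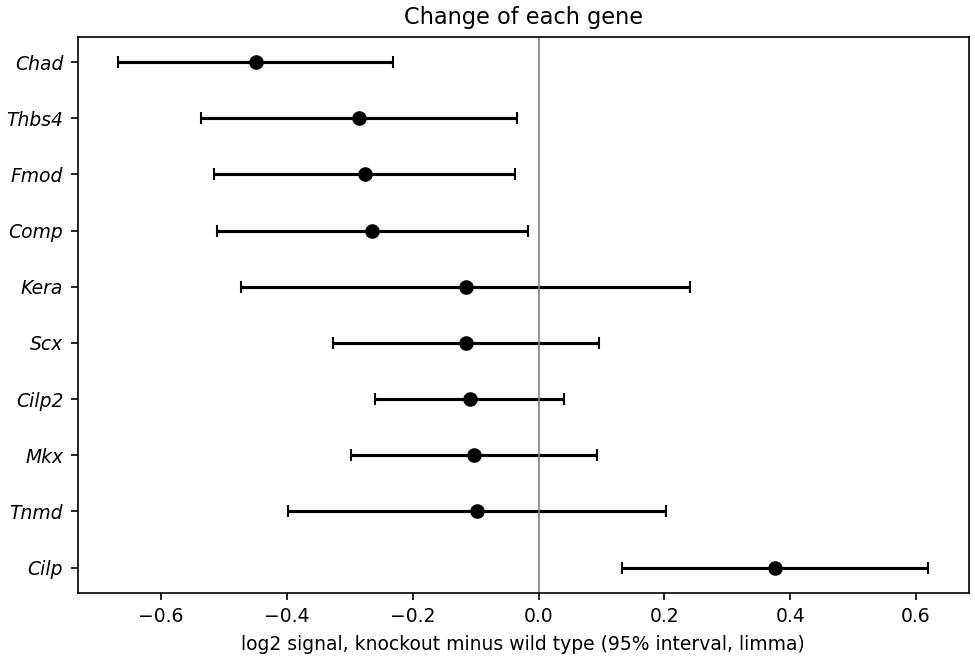
Change in log2 signal, knockout minus wild type (horizontal axis), of each of the 10 genes (rows) with its 95% interval from limma (bars, 4 samples per genotype). The intervals of Chad, Thbs4, Fmod and Comp lie below 0 and that of Cilp above 0, while those of the other 5 genes cross 0, and 0 of the 10 passed after adjustment over all genes.

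The tenocyte marker and the transcription factors differed less. Tnmd had signals of 8.83, 9.07, 8.92 and 9.29 in knockout samples 1 to 4 and of 8.83, 9.43, 9.34 and 8.91 in wild type samples 1 to 4. Both genotypes spread over nearly the same range, and within wild type the samples formed a low pair (1 and 4) and a high pair (2 and 3). The change was -0.10 (SE 0.138, 95% interval -0.40 to 0.20, limma adjusted p = 0.911), and it was 0.00291 without wild type sample 2.

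Scx had signals of 8.51, 8.80, 9.02 and 8.90 in knockout samples 1 to 4 and of 8.89, 9.03, 8.84 and 8.92 in wild type samples 1 to 4. Knockout sample 1 was the lowest, and knockout samples 3 and 4 lay within the wild type range. The change was -0.11 (SE 0.097, 95% interval -0.33 to 0.10, limma adjusted p = 0.834). Without knockout sample 1 it was -0.0159.

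Mkx, a homeobox factor, had signals of 6.94, 7.08, 7.18 and 7.33 in knockout samples 1 to 4 and of 7.09, 7.39, 7.17 and 7.27 in wild type samples 1 to 4. Knockout samples 1 and 2 lay below all wild type samples and the other 2 among them. The change was -0.10 (SE 0.090, 95% interval -0.30 to 0.09, limma adjusted p = 0.839). Mkx was the dimmest of the 10 probe sets, at the 31.4th percentile of gene signals. It was -0.0386 with knockout sample 1 omitted, -0.0483 with wild type sample 2 omitted and -0.168 with knockout sample 4 omitted.

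Members of related pairs were compared within each sample, pairs chosen after the values were seen. For these pairs SE is not limma's: it comes from the spread of the within-sample differences in each genotype, without moderation. The change of Cilp exceeded that of Cilp2 by 0.49 (SE 0.183), with an exact 2-sided permutation p of 0.0857 over the 70 arrangements of the samples and 0.343 after Benjamini-Hochberg adjustment over 4 pairs. Thbs4 and Comp differed in their changes by -0.02 (SE 0.107, exact permutation p = 0.886), Scx and Mkx by -0.01 (SE 0.075, exact permutation p = 0.857) and Fmod and Kera by -0.16 (SE 0.154, exact permutation p = 0.371). The adjusted values for these 3 pairs were 0.886, 0.886 and 0.743. With 4 samples against 4 the smallest possible exact p is 0.0286.

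The 10 genes varied widely between samples of the same genotype. Their median standard deviation within genotypes was 0.20, against 0.10 over all genes, and 9 of the 10, all but Cilp2, lay above the 75th percentile of genes by that measure. Knockout sample 1 was the lowest of the 8 samples in 8 of the 10 genes, the exceptions being Tnmd and Cilp. Wild type sample 2 was the highest in 6 and wild type sample 3 in 2. The mean of the 10 genes was 8.75, 8.96, 8.99 and 9.08 in knockout samples 1 to 4 and 8.95, 9.28, 9.15 and 8.97 in wild type samples 1 to 4. Only wild type samples 2 and 3 lay above all knockout samples, and only knockout sample 1 lay below all wild type samples.

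The shared variation within genotypes was described by correlations between pairs of the genes. After the mean of each genotype was subtracted, the 36 pairs without Cilp had Pearson correlations of 0.011 to 0.954 over the 8 samples (median 0.671), all above 0. Without the 2 samples farthest from the median of the first gene of a pair, 31 of these 36 stayed above 0 and 5 fell below it, all 5 of them pairs with Cilp2, the lowest at -0.397 with Comp, and that of Tnmd and Mkx went from 0.664 to 0.182. The 9 pairs with Cilp ran from -0.478 to 0.377 (median 0.181). Fmod and Tnmd had the highest correlation, with r = 0.954 (exact permutation p = 0.0087 within genotypes) and rho = 0.952 (exact permutation p = 0.0069), and r = 0.916 without the 2 samples farthest from the median of Fmod. Scx and Kera followed with r = 0.938 (exact permutation p = 0.0104) and rho = 0.833 (exact permutation p = 0.0312), and r = 0.790 without the 2 farthest samples. Cilp and Cilp2 had r = -0.478 (exact permutation p = 0.0712) and rho = -0.690 (exact permutation p = 0.0434), and r = -0.582 without the 2 farthest. After adjustment over the 45 pairs these exact permutation p-values were 0.156, 0.156 and 0.219 for r and 0.156, 0.176 and 0.195 for rho, so no pair passed. All pairs share the same 8 samples.

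**Figure D3:**
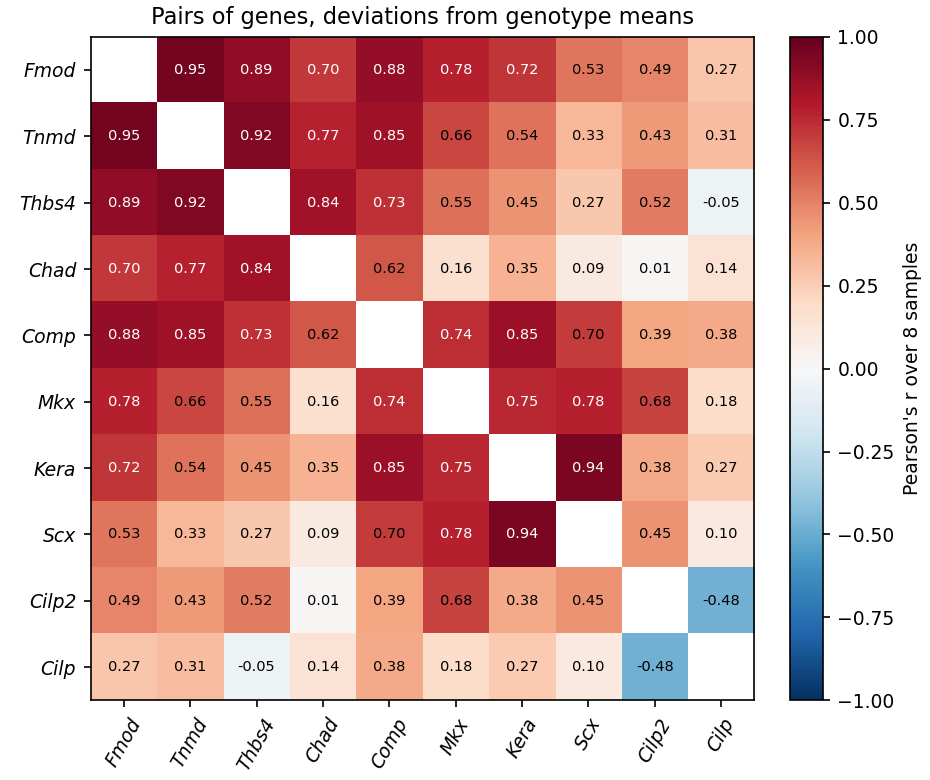
Pearson correlation (colour and printed value) between each pair of the 10 genes over 8 samples, after the mean of each genotype was subtracted from every gene. Fmod, Tnmd, Thbs4, Chad and Comp form a block of correlations from 0.62 to 0.95, Kera and Scx correlate at 0.94, and Cilp correlates negatively with Cilp2 (-0.48).

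Outside the gene lists used here, the 5 genes above the median signal whose deviations most resembled those of the mean of the 10 were Ier5 (r = 0.994, rho = 1), Pald1 (r = 0.989, rho = 0.976), Atp5j2 (r = 0.977, rho = 0.929), Sox7 (r = 0.966, rho = 0.952) and Snapc4 (r = 0.960, rho = 0.810), each over 8 samples. They were picked as the highest of many, so no p is given. Their changes ran from -0.11 (Ier5) to 0.03 (Atp5j2), and 0 of the 5 passed in limma, with unadjusted p-values of 0.224 or more.

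Most measured relatives of the leucine-rich repeat proteins had a change of the other sign. Of 14 other small leucine-rich proteoglycans measured, 11 had a higher mean in knockout muscle and 3 a lower mean, with a median change of 0.10, and 0 passed over all genes in limma while 4 were higher and 0 lower at an unadjusted p under 0.05. Ogn, osteoglycin, changed by 0.26 (SE 0.076), Omd, osteomodulin, by 0.30 (SE 0.117) and Lum, lumican, by 0.33 (SE 0.141), with adjusted p-values of 0.338, 0.529 and 0.589 in limma. With 1 sample left out, 1 to 4 of the 14 were higher at that unadjusted p: 1 with wild type sample 4 omitted, and 2 with knockout sample 1 or 3, or wild type sample 1 or 3, omitted. Lum was 0.191 (limma unadjusted p = 0.117) with knockout sample 3 omitted. Fmod, Kera and Chad, of the same wider family, had changes of -0.28, -0.12 and -0.45. Whether this contrast exceeds what separate genes of a family show was not tested. Of 7 other thrombospondins and matrilins, 4 had a higher and 3 a lower mean (median change 0.04), with 0 passing in limma and 1 higher at an unadjusted p under 0.05: Thbs3 at 0.18 (SE 0.066, adjusted p = 0.502). Matn3 differed by -0.13 and Matn4 by 0.09.

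Most genes listed under fibril collagens and their processing, a list that also holds tenascins, had higher means as well. Of 16 measured, 14 had a higher and 2 a lower mean (median change 0.10), and 0 passed over all genes in limma. At an unadjusted p under 0.05 in limma, 4 were higher and 0 lower. Col1a1 and Col1a2 differed by 0.01 and 0.05, and the 2 lower genes were Col12a1 at -0.24 and Tnc at -0.13. The number with a higher mean was 11 without knockout sample 3. It was 10 when knockout sample 1 and wild type sample 4 were dropped together. Col3a1, the collagen of loose connective tissue, changed by 0.44 (SE 0.111), Tnxb, a tenascin, by 0.26 (SE 0.080), and Loxl1, a collagen and elastin cross-linking enzyme, by 0.24 (SE 0.074), with adjusted p-values of 0.250, 0.387 and 0.387 in limma.

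**Figure D4:**
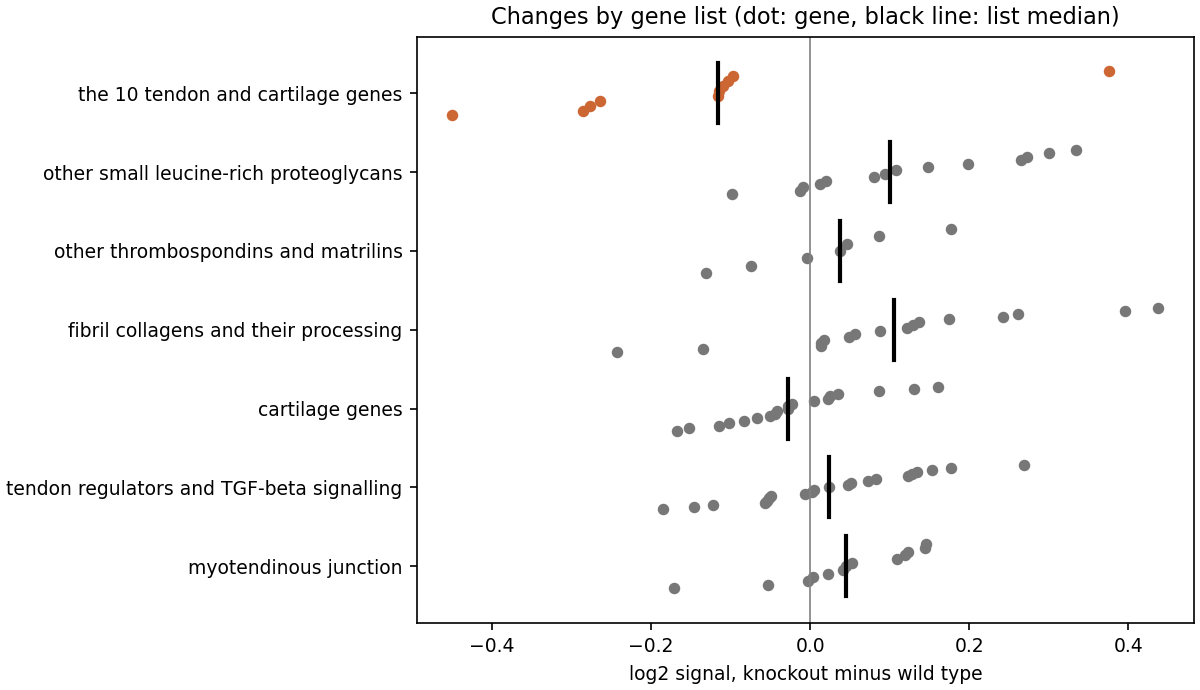
Change in log2 signal, knockout minus wild type (horizontal axis), of single genes (dots) in the 10 tendon and cartilage genes (orange) and in 6 related lists (grey), with the median of each list as a black line. The median lies at -0.12 for the 10 genes, 0.10 for the other small leucine-rich proteoglycans, 0.10 for fibril collagens and -0.03 for cartilage genes.

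Genes that define cartilage differed little. Of 19 measured, 7 had a higher and 12 a lower mean (median change -0.03), 0 passed over all genes in limma, and 0 were higher and 2 lower at an unadjusted p under 0.05. These were Col10a1, the collagen of hypertrophic cartilage, at -0.17 (SE 0.063, adjusted p = 0.50) and Col11a1, a fibril collagen of cartilage, at -0.15 (SE 0.062, adjusted p = 0.555). Col9a1 differed by 0.13. The cartilage proteoglycan core protein Acan lay at the 26.2nd percentile of gene signals and the link protein Hapln1 at the 10.1st, while Col2a1, the main cartilage collagen, lay at the 59.5th. Of 4 bone markers, 1 had a higher and 3 a lower mean, with 0 passing in limma and 1 higher at an unadjusted p under 0.05.

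Regulators of tendon formation and the TGF-beta pathway were mixed. Of 21, 13 had a higher and 8 a lower mean (median change 0.02), 0 passed over all genes in limma, and 1 was higher and 1 lower at an unadjusted p under 0.05. Mstn, the muscle growth inhibitor, was the higher gene at 0.27 (SE 0.074, adjusted p = 0.309), and Tgfb2, a growth factor that induces scleraxis, was the lower at -0.19 (SE 0.079, adjusted p = 0.590). Egr1, an early response factor that acts on tendon collagen genes, differed by 0.18 (SE 0.091), and by 0.0951 with knockout sample 1 omitted (limma unadjusted p = 0.246). Of 13 genes listed for the myotendinous junction, where fibres anchor to tendon, 10 had a higher and 3 a lower mean (median change 0.04). Of these, 0 passed in limma and 1 was higher at an unadjusted p under 0.05, the integrin subunit Itgb1 at 0.12 (SE 0.053, adjusted p = 0.590). Tln2 differed by 0.14, and the 3 lower genes were Adamts20 at -0.17, Col22a1 at -0.05 and Col24a1 at -0.003.

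Markers of other cells differed beside these genes, and their part in the differences was not tested. Slow fibre markers had a mean of 10.73 to 11.38 in knockout and 11.37 to 11.76 in wild type samples, with 8 of 9 lower and 1 higher at an unadjusted p under 0.05 in limma and 0 passing over all genes. Knockout sample 1 was the lowest for slow fibre markers and for the 10 genes alike, and wild type samples 2 and 3 were the highest for both. The slow troponin Tnnc1 changed by -0.76 (SE 0.132), Myl3 by -0.61 (SE 0.125) and Tnni1 by -0.71 (SE 0.158), with adjusted p-values of 0.0763, 0.130 and 0.176 in limma. Tnnc1 passed over all genes in limma with array weights (adjusted p = 0.0481), with dim genes left out (0.0488) and with the replicate number as a block (0.0089). With that block 4 of the 9 passed, Tnni1 among them (0.00582), and Myl3 passed with knockout sample 3 omitted (0.0237). Tpm3 was the brightest at a change of -0.57, or -0.309 as the mean of its probe sets. Schwann cell markers had a mean of 7.91 to 8.14 in knockout and 8.09 to 8.40 in wild type samples, with 2 of 6 lower at an unadjusted p under 0.05. Ncmap, a myelin membrane protein, changed by -0.25 (SE 0.061), Mbp by -0.29 (SE 0.112), Sox10 by -0.13 and Pmp22, the brightest, by -0.21. Sox10 was -0.0566 with knockout sample 1 omitted and Pmp22 -0.0486 with wild type sample 2 omitted. The unadjusted p of Mbp in limma was 0.0741 and 0.0779 when knockout sample 1 or 2 was omitted and 0.0816 when wild type sample 2 was, which left 1 of the 6 under 0.05.

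General fibroblast markers had higher means. All 10 measured had a higher mean in knockout, 4 at an unadjusted p under 0.05 in limma and 0 over all genes, and their mean was 10.01 to 10.25 in knockout and 9.86 to 10.13 in wild type samples. Dpp4 changed by 0.24 (SE 0.078), Clec3b by 0.26 (SE 0.090), Cd34 by 0.17 (SE 0.063) and Gsn, the brightest, by 0.09. The 4 became 2 with wild type sample 4 omitted, 6 with knockout sample 2 or wild type sample 2 omitted, and 0 when knockout sample 1 and wild type sample 4 were dropped together. Macrophage markers had a mean of 8.64 to 9.01 in knockout and 8.32 to 8.71 in wild type samples, with 8 of 10 higher at an unadjusted p under 0.05, among them Lyve1 at 0.50, Adgre1 at 0.40 and Lyz2 at 0.51. In knockout sample 1 the fibroblast mean was the highest of the 8 samples, while the mean of the 10 tendon and cartilage genes was the lowest. Adipocyte markers had a mean of 8.30 to 8.71 in knockout and 7.53 to 9.49 in wild type samples, with wild type sample 2 the highest and wild type sample 3 the lowest, and wild type samples 2 and 3 were both high for the 10 genes. Endothelial markers (3 of 8 with a higher mean) had 0 of 8 at an unadjusted p under 0.05 in limma. Adipocyte markers (3 of 6 with a higher mean) had 0 of 6. Without wild type sample 3, 0 of the 6 adipocyte markers had a higher mean and 2 were lower at that p. Without wild type sample 2, 5 had a higher mean and 2 were higher at that p. Fast fibre markers, among the brightest signals on the arrays, had means of 14.25 to 14.30 over all samples and 0 of 10 at that threshold. All 10 had a lower mean in knockout, 2 of them with every knockout sample below every wild type sample, but 4 of 10 did after quantile normalization. With all 8 samples weighted equally, no genes left out and genotype alone in limma, 0 genes of these marker lists passed over all genes.

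**Figure D5:**
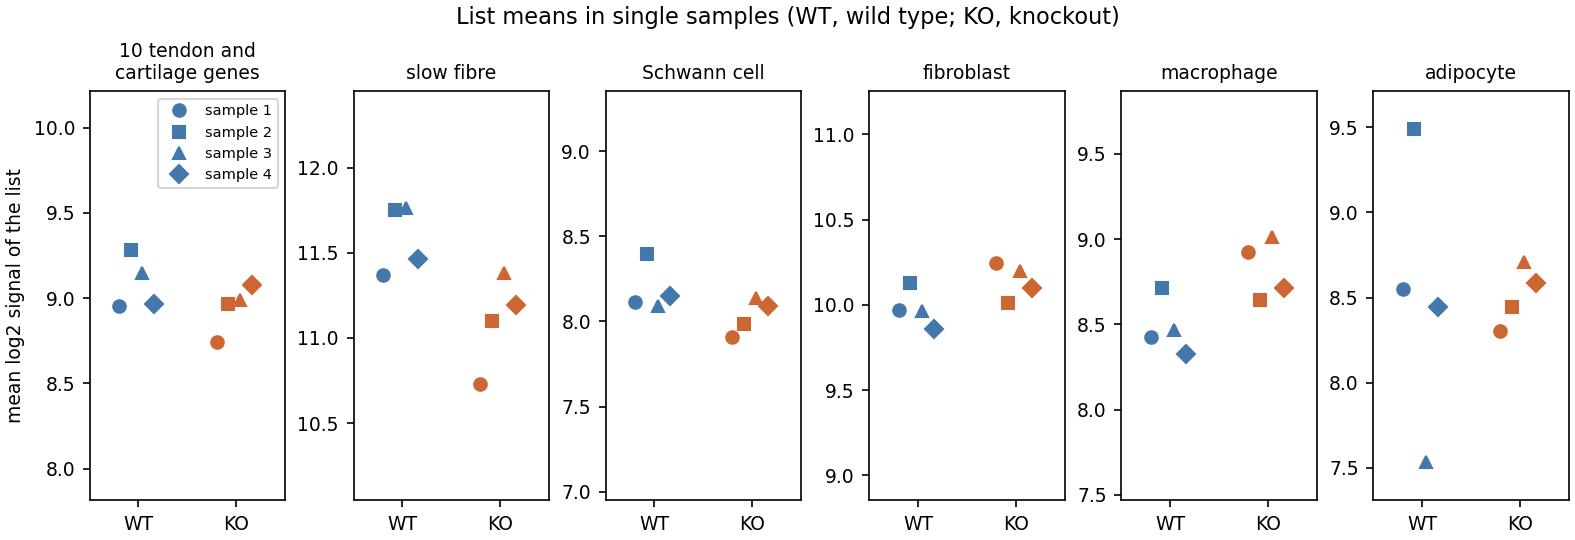
Mean log2 signal (vertical axis, each panel spanning the same height) of the 10 tendon and cartilage genes and of 5 marker lists in the 4 wild type samples (blue) and 4 knockout samples (orange), with symbols for the sample number. Knockout sample 1 is the lowest for the 10 genes (8.75), for slow fibre markers (10.73) and for Schwann cell markers (7.91), and the highest for fibroblast markers (10.25).

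The targeted gene Hdac5 was lower in every knockout sample, at 8.33 ± 0.04 (SD, n = 4) against 9.83 ± 0.08 (SD, n = 4), a change of -1.50 (SE 0.059). Pairs of arrays had correlations of 0.988 to 0.995, and 0 pairs were identical. The first principal component, with 34.1% of the variance over genes, ran from knockout sample 1 to wild type sample 4. With these 2 samples left out, an alternative chosen after seeing the data, Chad changed by -0.491 and Cilp by 0.299, and 3 of the 10 genes were lower at an unadjusted p under 0.05 in limma.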

How the data were processed

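Gastrocnemius RNA was measured on 8 arrays, 4 per genotype as labelled. The values are log2 signals that the authors deposited, made with Affymetrix Expression Console 4.0 per the submitters' processing notes. How background, summary and normalization were done is not stated in the sources used here. That the scale is log2 was inferred from the value range. Array medians were 7.69 to 7.77. The number of arrays limits the precision, and no counts or depth exist for arrays.

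The platform annotation gives a single symbol for 21789 of the 35556 probe sets, more than 1 for 1621 and none for 12146. The probe set of highest mean per gene was kept, giving 19938 genes. Genotypes were compared with limma 3.58.1 in R 4.3.3 (lmFit, eBayes, genotype only), with Benjamini-Hochberg adjustment over all genes and a threshold of 0.05. Exact permutation tests were 2-sided. Plots used matplotlib 3.10.9.

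The 10 genes and the lists were chosen with earlier results of these data known. The text names, from each related list, the 3 genes of smallest unadjusted p, from marker lists also the brightest, the 10 genes, Hdac5 and the 5 genes most like them. From the bone and endothelial lists counts are given, and from the adipocyte and fast fibre lists counts and list means. No gene of these lists is named. Acan, Hapln1 and Col2a1 were named outside this rule, as defining cartilage genes, after their values were seen. Also named outside it, after their values were seen, were Col1a1, Col1a2, Col12a1, Tnc, Col22a1 and Col24a1. Promoter windows are from RefSeq (GRCm38.p6). Alternatives were quantile normalization, trended and robust eBayes, array weights, leaving out genes below the lower quartile of mean signal, averaging probe sets, a replicate block and leaving out each sample.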

Additional observations from a re-analysis of the deposited data

How the results depend on the processing

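Of the 10 genes, 0 passed over all genes in limma under any of the 15 alternatives, and 8 kept their sign in all 15. The number of the 10 with a lower mean was 8 or 9, and the number lower at an unadjusted p under 0.05 ran from 1 to 5 when 1 sample was left out. With 1 sample left out, Tnmd ran from -0.195 to 0.00291 (the latter with wild type sample 2 omitted), Kera from -0.235 to 0.0555 (knockout sample 1 omitted) and Sox7 from -0.0758 to 0.0215 (knockout sample 1 omitted), with 0.0169 when wild type sample 2 was omitted. The change of Thbs4 less that of Comp ran from -0.0827 to 0.0548, with its sign turned when wild type sample 3 (0.0548), wild type sample 4 (0.00242), knockout sample 2 (0.00585) or knockout sample 3 (0.00238) was left out. The change of Scx less that of Mkx ran from -0.0676 to 0.0245, turned when wild type sample 1 (0.0245), knockout sample 1 (0.0228) or knockout sample 4 (0.0231) was left out, and was 0.0107 with array weights and 0.0103 when knockout sample 1 and wild type sample 4 were dropped together. The cause was not tested. Over all genes, 13 passed, and 44 did with a trended and robust eBayes, 31 with array weights, 36 with dim genes left out, 5 to 20 with 1 sample left out, and 5 with knockout sample 1 and wild type sample 4 dropped together, which was chosen after seeing the data. With the replicate number as a block, 30 genes passed over all genes, 0 of the 10 among them. Deviations of same-numbered samples correlated at 0.338, -0.115, -0.153 and 0.340, and those of differently numbered samples at -0.326 to 0.204. The labels do not state what the numbers mark. Whether same-numbered samples share more than a number was not tested. No background measure was used, so which signals lie near background is not known here.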
